A study of Canis lupus familiaris with 30 samples.

Results

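Cytosolic ribosomal protein genes were followed through paired lymph node aspirates of dogs with lymphoma. Members were the rows of the expression table whose symbol begins RPL or RPS followed by a number, or is RPLP0, RPLP1, RPLP2 or RPSA, without pseudogenes and without the S6 kinases, which cost 1 gene, RPS6KA3. The rule found 26 members among 32704 gene IDs, of which 5086 carried a symbol in the study's tables of results. There were 12 members of the large subunit, RPLP0 of its stalk among them, 13 of the small subunit and 1 paralog, RPL22L1. Those tables were shortened and ordered by p-value, so the members are the ribosomal protein genes named there, and RPL3, RPL11, RPL22, RPS19 and other family members were not analysed here. A comparison between 6 and 9 dogs that the study had separated by clustering named 19 members, and 7 (RPL22L1, RPL4, RPS18, RPS21, RPS25 and RPS27 among them) were named only by a table of change over time in 6 dogs, so the list is not a sample of the family that is independent of these data.

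The study sampled swollen lymph nodes by fine needle in 15 dogs with lymphoma, before treatment (the initial timepoint) and again 6 weeks into CHOP, a chemotherapy of cyclophosphamide, doxorubicin, vincristine and prednisone (the six-week timepoint). By immunophenotype label 7 dogs were B-Cell, 3 were T-Cell and 5 were Unknown, which gave 30 libraries. The libraries labelled 031A and 032B were the only ones without a partner of the same number and were taken as 1 dog. The tumours were spontaneous, each dog was its own control, there were no untreated dogs at the six-week timepoint, and the aspirates hold whatever other cells the node contained. Separate dogs were the replicates. For changes over time the p-values rest on how much the change varied between dogs. Between labels they rest on the spread of dogs within a label, Unknown dogs included.

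The ribosome is built from a large and a small subunit, each an RNA scaffold carrying many small basic proteins that are needed in nearly equal numbers. The messenger RNAs of these proteins begin with a run of pyrimidines, through which their translation follows growth signals, and they are among the most abundant messages of dividing cells. Lymphocytes make more ribosomes when they are activated, and free RPL5, together with RPL11, can bind MDM2.

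The lymphocyte markers went against 2 labels, in dog 038 for both cell types and in dog 029 for the T-cell markers. In dog 038, labelled T-Cell, the initial library held PAX5, a factor that defines B cells, at 62.8 FPKM and CD3E, a chain of the T-cell receptor complex, at 14.6 FPKM. In the other T-Cell dogs PAX5 was at 1.52 (dog 028) and 0.291 FPKM (dog 036) and CD3E at 188 and 328 FPKM in the initial libraries. Dog 029, labelled B-Cell, held CD3E at 178 FPKM in its initial library, whereas the other 6 B-Cell dogs held between 1.56 and 27.4 FPKM. PAX5 was at 17.7 FPKM there, nearer to those dogs (25.1 to 60.2 FPKM) than to dogs 028 and 036, and its macrophage and stroma marker scores (mean log2(FPKM + 1) 4.25 and 3.15) were the highest of the initial libraries. Results between labels are therefore also given without 1 or both of these dogs. FPKM, which scales reads to transcript length and library depth, was available for all 30 libraries, with library sums from 769269 to 2253170. The count table followed it (Spearman 0.88 to 0.983 across genes) in 9 dogs and not (0.0867 to 0.117) in the other 6, and the FPKM table was used throughout apart from 1 comparison. Total counts ran from 4318390, in the six-week library of dog 036, to 43413400.

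All 26 members were measured far above the low end of the table. Mean FPKM over the 30 libraries ran from 122 for RPL22L1 to 5253 for RPL12, and every member had a median percentile within a library of 97.8 or more among all gene IDs. FPKM is a level per length, so levels can be compared between members. Ribosomal protein genes have many processed copies in mammalian genomes, and how reads that fit several copies were shared out is not given in the sources used here, so the order of the levels is uncertain.

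In the large subunit RPL12, which sits at the base of the stalk where the translation factors bind, had 1694 FPKM in its lowest library, a median of 4414 and 9965 in its highest. RPLP0 (ENSCAFG00000010227), the stalk protein that holds the P1 and P2 dimers, had 303, 954 and 2777 FPKM. The stalk base was thus read at a higher level than the stalk protein itself, and the lowest library for both was the initial library of dog 036. RPL5 (ENSCAFG00000020150), which carries the 5S RNA into the large subunit, ran from 205 to 1145 FPKM with a median of 611. RPL21 was the lowest of the core large subunit genes, with 40.6 FPKM at its lowest, a median of 189 and 356 at its highest. RPL35, at the exit of the peptide tunnel, was the steadiest member, with an SD of 0.43 on the log2 scale and a range from 1040 to 2966 FPKM.

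In the small subunit RPS12 had the highest mean, with 992 FPKM at its lowest, a median of 3211 and 10650 at its highest. RPS6 (ENSCAFG00000001615), the target of the S6 kinases, ran from 892 through a median of 3604 to 6385 FPKM. RPSA, also known as the laminin receptor, ran from 335 through 1239 to 2784 FPKM, and RPS27A, which is made as a fusion with ubiquitin, from 402 through 1279 to 3247 FPKM. RPS23 (ENSCAFG00000030896), a protein of the decoding centre, was the lowest small subunit gene and the least steady member, with 32.1 FPKM at its lowest, a median of 368 and 661 at its highest, and an SD of 0.92 on the log2 scale. RPLP0 and RPS7 were also among the least steady, with SDs of 0.83 and 0.82, while RPL5 and RPS27 (0.54 and 0.55) were near RPL35 at the steady end. The initial library of dog 036 was the lowest of the 30 for all 26 members.

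The members went together from library to library. Across the 325 pairs of members the median Pearson r of log2(FPKM + 1) over the 30 libraries was 0.85, from -0.04 to 0.97, and it was 0.88 when the median of each library was first taken off. These libraries include both timepoints of each dog and share library depth and composition, so r is a description. RPS3A, a small subunit protein beside the messenger RNA exit, was most like the mean of the other members (r 0.986), and RPL15 (0.976) came next. RPL19 (0.539) and the paralog RPL22L1 (0.586) were least like it. Among 14230 genes that were no members and had a mean FPKM above 1, the median r with the member mean was -0.12, and 0.815% had r above 0.9. The 5 most alike that carried a symbol were RACK1, a scaffold bound to the small subunit (0.938), the initiation factors EIF4B (0.922) and EIF3E (0.888), the elongation factor subunit EEF1D (0.914) and POLR1E, a subunit of RNA polymerase I (0.874). RACK1 ranked 43 among all genes that were no members, and those above it had no symbol here.

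Of the whole FPKM sum the 26 members held 5.08% ± 1.92 (SD, n = 15 dogs) before treatment and 4.32% ± 2.07 (SD, n = 15) after 6 weeks. The initial share was 3.21% at its lowest, 5.16% at its median and 8.24% at its highest among the B-Cell dogs. In the T-Cell dogs it was 1.70% in dog 036, 2.89% in dog 028 and 3.98% in dog 038. In the Unknown dogs it was 3.26% in dog 035, 5.05% in dog 024, 5.81% in the pair 031A and 032B, 6.87% in dog 025 and 7.42% in dog 026. Dogs 036 and 028 lay below every B-Cell dog, and dog 038 lay above the lowest of them, dog 029. At the six-week timepoint the T-Cell dogs lay between 2.55% and 2.58%, below every B-Cell dog (2.83% to 9.07%), and the Unknown dogs lay between 2.67% and 7.37%. The share is a description and was not tested.

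The share was higher at 6 weeks in 7 dogs and lower in 8, with a mean change of -0.757 percentage points (SD 1.8, n = 15). It went from 6.87% to 2.67% in dog 025, from 7.60% to 3.56% in dog 037 and from 5.88% to 2.83% in dog 033. It went from 5.03% to 3.00% in dog 034 and from 3.98% to 2.56% in dog 038. The gains were smaller: the pair 031A and 032B went from 5.81% to 7.09%, dog 036 from 1.70% to 2.55% and dog 003 from 8.24% to 9.07%. By label the mean change was -1.01 points (SD 2.0; 4 dogs higher, 3 lower) in B-Cell dogs, -0.289 (SD 1.14; 1 higher, 2 lower) in T-Cell dogs and -0.684 (SD 2.1; 2 higher, 3 lower) in Unknown dogs. In each label the dogs went both ways. In the six-week library of dog 033 the sum over all gene IDs was the largest of the series, so its share was lower by more than its members' FPKM, whose sum was 0.91 of the initial value.

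**Figure D1:**
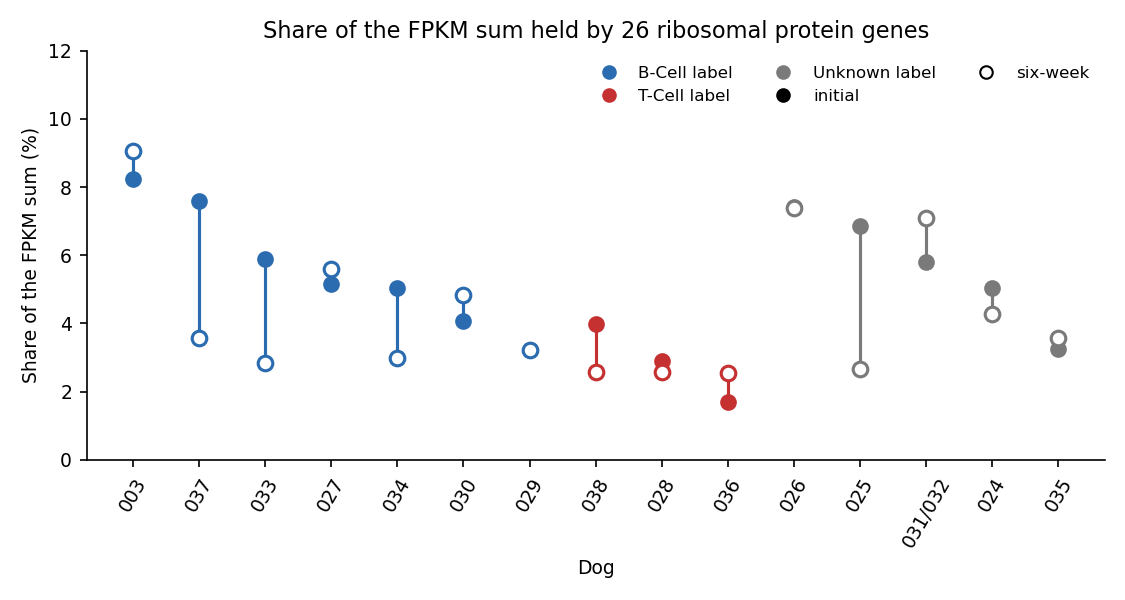
Share of the FPKM sum (%, y axis) held by the 26 genes in each dog (x axis), filled before treatment and open after 6 weeks, joined by a line and coloured by label. The longest lines, all towards a lower share, are those of dogs 037, 033, 034, 025 and 038, and the T-Cell dogs lie at or under 3.98%.

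The first comparison asked whether the ribosomal protein genes changed over 6 weeks of treatment. RPL22L1, the paralog of RPL22, had 134 ± 58.4 FPKM (SD, n = 15) before treatment and 109 ± 60.3 later, and its range over dogs was 25.0 to 260 against 41.6 to 279 FPKM. The timepoints overlapped almost wholly, and the paired difference was -0.29 on the log2(FPKM + 1) scale (SE 0.18, limma adjusted p = 0.498), with lower values in 10 dogs. RPL26, a large subunit protein, had a difference of -0.27 (SE 0.16, adjusted p = 0.484), and RPS18, a protein of the head of the small subunit, had -0.23 (SE 0.14, adjusted p = 0.492), each with lower values in 10 dogs. The 2 members with a positive difference were RPS21 (0.11, SE 0.15, adjusted p = 0.789), higher in 9 dogs, and RPL19 (0.05, SE 0.17, adjusted p = 0.922), higher in 8. RPS6 differed by -0.08 (95% interval -0.50 to 0.34), RPSA by -0.14 (-0.58 to 0.30) and RPLP0 by -0.05 (-0.41 to 0.32).

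With limma 0 of the 26 members passed an adjusted p of 0.05 between timepoints in all 15 dogs, and 0 had an unadjusted p under 0.05. Of 14257 genes tested, 0% passed and 1823 had an unadjusted p under 0.05. The members' median difference was -0.15, from -0.29 to 0.11, with 24 of 26 negative, against -0.01 for all genes tested. With libraries scaled to the same FPKM sum it was -0.27, with 26 of 26 negative and 5 at an unadjusted p under 0.05, against -0.09 for all genes. In a bulk aspirate fewer cells of a type and less RNA per cell cannot be told apart. Marker lists could hold only genes named in the study's shortened tables, such as 3 of 10 B-cell and 7 of 14 T-cell markers. Those tables were ordered by p-value, so marker counts here and below are not independent of these data. Marker lists of other cells were positive in the same comparison: 7 of 7 T-cell (median 0.70) and 5 of 5 macrophage markers (0.75). So were 4 of 4 plasma cell (0.41) and 6 of 6 stroma markers (0.39). By contrast, 3 of 3 B-cell markers (median -0.26) and 9 of 9 proliferation genes (-0.50) were negative. None of these lists had a gene past the threshold. Their part in the members' difference was not tested. Without dog 036 the members' median was -0.28, 10 had an unadjusted p under 0.05 and 0 an adjusted one. In the 9 dogs whose counts followed FPKM the median was -0.22, and in the other 6 dogs it was -0.06, with 0 members past the threshold in each.

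At least 22 of the 26 members went the same way in 9 of the 15 dogs, and that way differed between dogs. In dog 036 all 26 were higher at 6 weeks, with a median of 1.42 on the log2 scale and a range from 0.34 to 2.56. The median of all genes tested in that dog was -0.20. Its FPKM sum over all gene IDs also rose, from 892182 to 1540380. The FPKM sum of its members was thus 2.60 times the initial value, but their share only 1.51 times. In dog 035 all 26 were also higher, with a median of 0.22. All 26 were lower in dogs 037 (median -1.14), 038 (-0.67) and 024 (-0.51). Between 24 and 25 of 26 were lower in dogs 025 (-0.99) and 034 (-0.89), where the medians of all genes were 0.13 and 0.17. In dog 037 98.0% of genes tested lay above the members' median, and in dog 036 11.7% did. In dogs 027, 028, 029 and 030 the medians lay between -0.08 and 0.09 and members went both ways. The median change exceeded 0.5 in size in 6 of the 15 dogs.

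**Figure D2:**
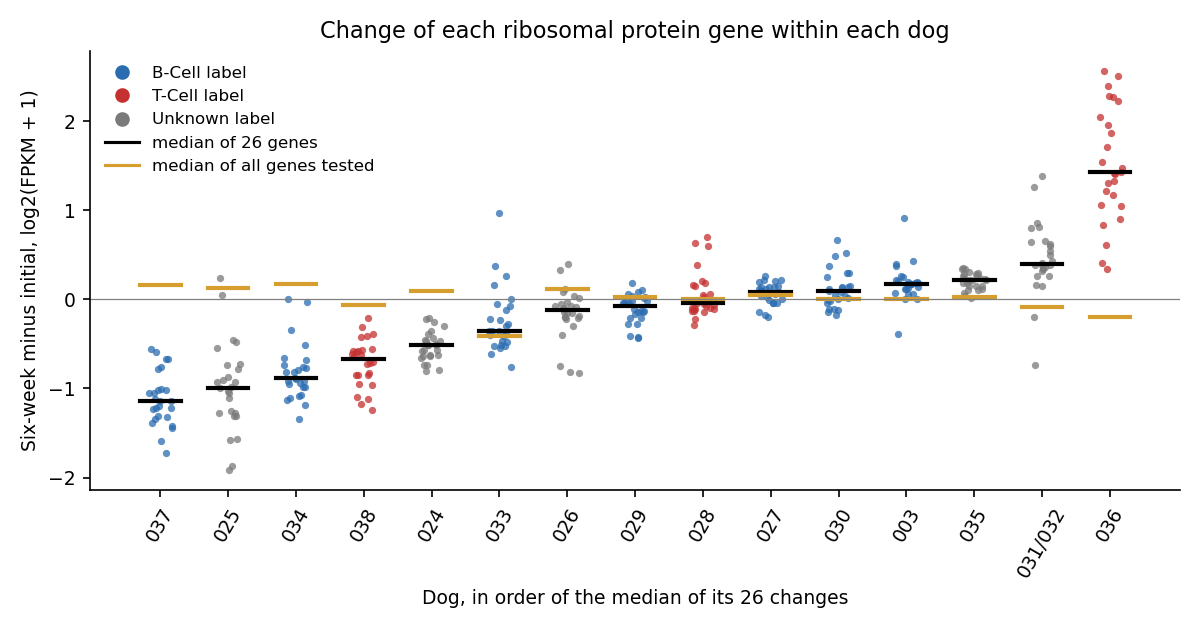
Six-week minus initial log2(FPKM + 1) of each of the 26 genes (points, coloured by label) in each dog, with the median of the 26 (black) and of all genes tested (ochre), dogs ordered by the black line. The median of the 26 runs from -1.14 in dog 037 to 1.42 in dog 036, while the ochre lines lie between -0.41 and 0.17.

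The change in lymphocyte markers differed among the 6 dogs whose members moved most. The marker difference is the mean log2(FPKM + 1) of PAX5, CD22 and FCRL1 minus that of 7 T-cell genes (CD3D, CD3E, CD5, CD28, TRAT1 and LCK among them). It went from 2.79 to -2.38 in dog 025, from 1.36 to -2.03 in dog 034 and from 2.31 to -0.01 in dog 038, and in each of these dogs both the members and the B-cell markers were lower at 6 weeks. In dog 036 it went the other way, from -6.07 to -1.62, with the members higher. In dog 037 it went from 1.85 to 3.08 and in dog 024 from 2.68 to 2.53, while all 26 members were lower in both. Over all libraries the 9 with a marker difference below 0 held a member share between 1.70% and 3.22%, and the 21 above 0 held between 2.83% and 9.07%, of which 1 library was at or under 3.22%. The lists differ in length and level, so 0 is not a point of equal cell numbers, and both timepoints of a dog are counted.

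**Figure D3:**
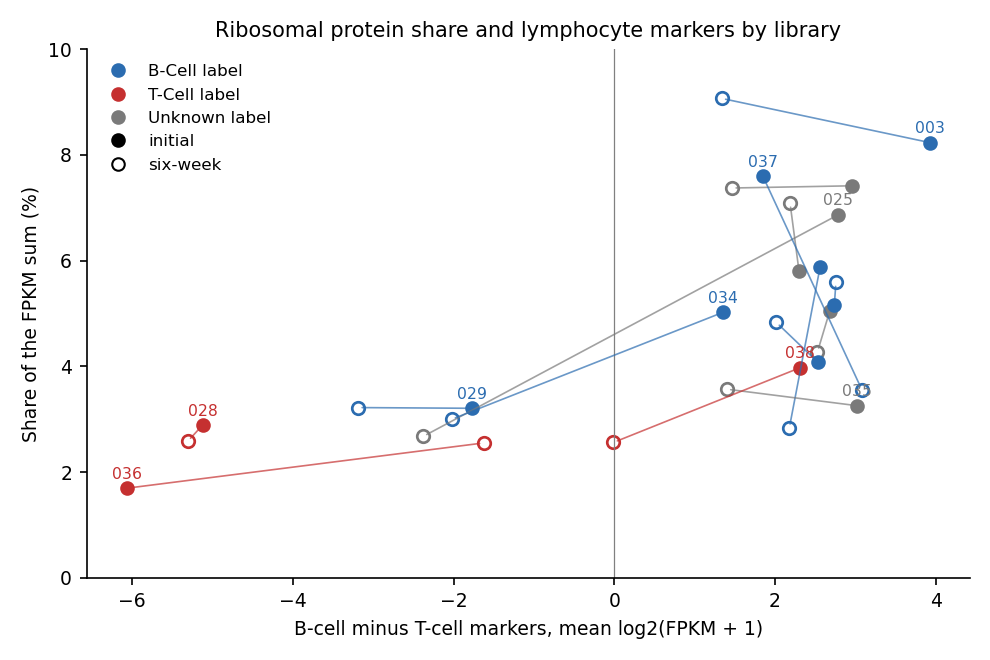
Share of the FPKM sum held by the 26 genes (%, y axis) against B-cell minus T-cell marker level (mean log2(FPKM + 1), x axis) for each library, filled before treatment and open after 6 weeks, coloured by label, with a line joining the libraries of a dog. The 9 libraries left of 0, some of them from the same dog, lie at or under 3.22%, and those right of 0 reach 9.07%. Dogs 025, 034 and 038 cross from right to left towards a lower share, dog 038 only to -0.01.

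The second comparison set T-Cell against B-Cell dogs before treatment. RPS23 had 32.1 FPKM in dog 036, 150 in dog 028 and 284 in dog 038, and 170 FPKM at its lowest, 472 at its median and 597 at its highest in the 7 B-Cell dogs. Dogs 036 and 028 lay below every B-Cell dog and dog 038 above the lowest of them, dog 029. The difference was -1.88 on the log2(FPKM + 1) scale (SE 0.55, limma adjusted p = 0.0824). RPS6 had 892, 1709 and 3178 FPKM in dogs 036, 028 and 038 against 2668, 4212 and 6071 (lowest, median, highest) in B-Cell dogs, with a difference of -1.27 (SE 0.38, adjusted p = 0.0855).

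RPL8, a large subunit protein near the peptidyl transferase centre, had 341, 550 and 1269 FPKM in dogs 036, 028 and 038 against 967, 1582 and 2558 (lowest, median, highest) in B-Cell dogs, a difference of -1.36 (SE 0.40, adjusted p = 0.0841). RPLP0 had 303, 310 and 1175 FPKM against 538, 977 and 1771, a difference of -1.08 (SE 0.50, adjusted p = 0.218). Dogs 036 and 028 held nearly the same low level of this stalk gene and dog 038 was well inside the B-Cell range. RPL22L1 had 25.0, 46.1 and 135 FPKM against 63.8, 134 and 165, a difference of -1.23 (SE 0.42, adjusted p = 0.116). RPL19 (-0.51, adjusted p = 0.489) and RPL35 (-0.49, adjusted p = 0.274) differed least.

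With the labels as given 0 of 26 members passed an adjusted p of 0.05 in limma, while 22 had an unadjusted p under 0.05. Of 13565 genes tested 0.346% passed, and 3028 had an unadjusted p under 0.05. All 26 members were negative, with a median of -1.01 and a range from -1.88 to -0.49, against a median of -0.02 for all genes, and 7.4% of genes tested lay below the members' median. Adjusted p ran from 0.0824 to 0.489 over the members. In the same comparison the 3 B-cell markers had a median of -2.39, with 1 past the threshold, and the 7 T-cell markers a median of 2.73, with 0 past it. Of 9 proliferation genes 8 were negative, with a median of -0.35. The part of these cell type differences in the members' values was not tested.

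The calls turned on the dogs whose markers went against their labels. In the initial libraries the B-cell minus T-cell marker difference ran with the member share (r 0.70). In the six-week libraries r was 0.50. Before treatment dog 029 held the lowest share of the B-Cell dogs (3.21%) and dog 038 the highest of the T-Cell dogs (3.98%). Leaving them out thus widened the difference between labels, so the calls below are not an independent test. Without dog 029, 10 of 26 members passed, all lower in T-Cell dogs, where 4.54% of the 13376 genes tested passed as lower. Without dogs 029 and 038, 20 of 26 passed, all lower, where 13.6% of 13333 genes passed as lower, and the members' median was -1.51. The T-Cell side then held dogs 028 and 036 alone. RPL22L1 was at -2.05 (SE 0.30, adjusted p = 0.000485), RPS23 at -2.76 (SE 0.49, adjusted p = 0.00176) and RPLP0 at -1.87 (SE 0.47, adjusted p = 0.0118). RPL21, RPL5, RPS27, RPL19 and RPL35 were among those that did not pass (adjusted p from 0.0622 to 0.217). Without dog 038 alone 17 members passed, all lower, where 9.36% of genes tested passed as lower, and without dog 036 or dog 028 alone 0 did, with medians of -0.59 and -1.13.

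**Figure D4:**
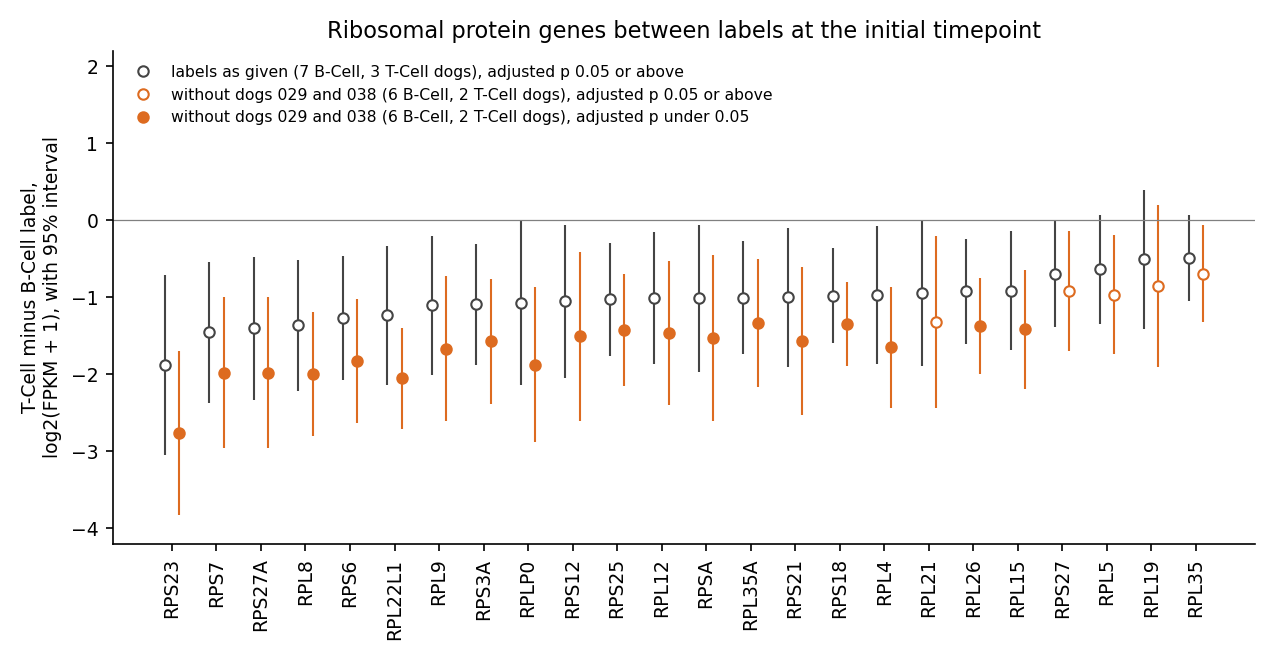
T-Cell minus B-Cell difference of 24 of the 26 genes at the initial timepoint (log2(FPKM + 1), points, with 95% intervals as bars), with the labels as given (grey) and without dogs 029 and 038 (orange), filled where the adjusted p was under 0.05. All differences are negative under both, 0 of the 24 pass with the labels as given and 19 pass without the 2 dogs.

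The third comparison set T-Cell against B-Cell dogs at the six-week timepoint. RPS18 had 1981 FPKM in dog 028, 2057 in dog 036 and 1473 in dog 038, against 1896, 4383 and 4982 (lowest, median, highest) in B-Cell dogs. The ranges overlapped at the low end of the B-Cell dogs, where dogs 034 and 029 lay, and the difference was -0.94 (SE 0.38, limma adjusted p = 0.598). RPL4, which lines the peptide tunnel, differed by -0.81 (SE 0.45, adjusted p = 0.641). RPL19 was the 1 member with a positive difference, 0.26 (SE 0.46, adjusted p = 0.874). In limma 0 of 26 members passed, 1 had an unadjusted p under 0.05, 0% of 15346 genes passed and 1257 had an unadjusted p under 0.05. The members' median was -0.45, with 25 of 26 negative, and scaling every library to the same FPKM sum moved it to -0.62 and the median of all genes from -0.09 to -0.23. Relative to the median of all genes the members then stood as low as before. Without dog 036 the members' median was -0.69 here and -0.59 at the initial timepoint. At 6 weeks it was -0.57 without dog 029 and -0.42 without dogs 029 and 038, with 0 members past the threshold in each. The wider difference seen at the initial timepoint without both dogs was thus not seen here. All 7 T-cell markers were positive (median 1.91) and all 3 B-cell markers negative (-1.59). Stroma markers (5 of 6 positive, median 0.80) and macrophage markers (5 of 5 positive, 1.15) were on the T-Cell side. The part of these markers was not tested.

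Change over time was also compared label by label, by limma with dog as a block. In B-Cell dogs 0 of 26 members passed, 0 had an unadjusted p under 0.05, and 0% of 14257 genes passed (545 with an unadjusted p under 0.05). RPS25 was the member with the smallest p there (-0.33, SE 0.23, adjusted p = 0.934) and RPS23 had the lowest value (-0.42, SE 0.31, adjusted p = 0.934). All 26 were negative, with a median of -0.28. Without dog 029 that median was -0.32. Of the markers in B-Cell dogs, 3 of 3 B-cell (median -0.54) and 9 of 9 proliferation genes (-0.55) were negative and 7 of 7 T-cell genes positive (0.49). In Unknown dogs 0 of 26 passed, 0 had an unadjusted p under 0.05, and 0% of genes passed (693 with an unadjusted p under 0.05). There 7 of 7 T-cell (median 1.39) and 5 of 5 macrophage markers (0.91) were positive. All 3 B-cell markers (-0.45) and all 9 proliferation genes (-0.40) were negative. The members' median was -0.20, RPL22L1 lay lowest (-0.54, SE 0.31, adjusted p = 0.955), followed by RPL26 (-0.45) and RPS18 (-0.41, adjusted p = 0.955), and RPL19 highest (0.25, SE 0.28, adjusted p = 0.955), followed by RPS21 (0.23, adjusted p = 0.955). Without dog 025 that median was -0.02, without dog 024 -0.12, without dog 035 -0.30 and without the pair 031A and 032B -0.39.

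In the 3 T-Cell dogs 0 of 26 members passed, 0 had an unadjusted p under 0.05, and 0% of genes passed (2850 with an unadjusted p under 0.05). RPS7, a small subunit protein that can bind MDM2, was highest (0.79, SE 0.47, adjusted p = 0.351), followed by RPS23 (0.75, SE 0.47) and RPL8 (0.65, SE 0.38, adjusted p = 0.338), and RPL4 (-0.18, SE 0.37, adjusted p = 0.809) and RPS18 (-0.12, SE 0.32, adjusted p = 0.861) were lowest. RPS7 went from 281 to 1669 FPKM in dog 036, from 552 to 636 in dog 028 and from 885 to 678 in dog 038. Of this gene, then, 2 dogs gained and 1 lost, and the gain was mostly that of dog 036. The members' median was 0.26. Without dog 036 it was -0.34, without dog 028 0.42 and without dog 038 0.74, with all 26 positive and 8 at an unadjusted p under 0.05 in the last. With libraries scaled to the same FPKM sum, which moved the median of all genes from -0.09 to -0.32, it was -0.04. In these dogs 5 of 5 macrophage (median 1.90), 4 of 4 plasma cell (1.52) and 3 of 3 B-cell markers (0.71) were positive. The mean log2(FPKM + 1) of the B-cell markers rose in dog 036 alone (0.49 to 3.54). It fell in dog 028 (1.31 to 1.09) and in dog 038 (4.93 to 3.87). Of the T-cell markers 3 of 7 were positive (-0.11), and of the proliferation genes 0 of 9 (-0.58).

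The difference in change between T-Cell and B-Cell dogs was tested directly. RPS23 differed by 1.17 (SE 0.56, limma adjusted p = 0.33, 95% interval -0.01 to 2.36) and RPL8 by 0.92 (SE 0.45, adjusted p = 0.339). In this test 0 of 26 members passed, 0 had an unadjusted p under 0.05, 0% of 14257 genes passed and 2163 had an unadjusted p under 0.05. All 26 differences were positive, with a median of 0.56. This median was -0.04 without dog 036, 0.59 without dog 029 and 0.96 without dog 038. In the last, 14 members had an unadjusted p under 0.05 and 0 an adjusted one. Macrophage (5 of 5 positive, median 1.72), plasma cell (4 of 4, 1.51) and stroma markers (6 of 6, 1.15) stood higher in the same difference. So did the B-cell markers (3 of 3, 1.26), which rose on average in dog 036 alone of the T-Cell dogs. The T-cell markers stood lower (7 of 7 negative, -0.61). The part of cell type markers in the members' values was not tested for any of these label comparisons.

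In counts, the timepoints were compared in the 9 dogs whose counts followed their FPKM. RPL22L1 had a log2 fold change of -0.48 (SE 0.29, edgeR adjusted p = 0.459) and RPL35 an adjusted p of 0.562. Each SE in counts is approximate, being the size of the fold change over the square root of the test's F value. RPS21 (0.13, SE 0.26, adjusted p = 0.834) and RPL19 (0.13, SE 0.30, adjusted p = 0.866) were the highest. In edgeR 0 of 26 members passed, 0 had an unadjusted p under 0.05, 0% of 11510 genes passed and 1666 had an unadjusted p under 0.05. DESeq2 called 580 genes and 0 members. The members' median was -0.18, and -0.42 without dog 036.

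Other genes that make or use ribosomes were read from lists of the same tables, so these lists too are not independent of these data. At the initial timepoint RACK1 (-1.06, SE 0.39, adjusted p = 0.139) and FAU, which encodes the small subunit protein eS30 (-0.90, SE 0.29, adjusted p = 0.0979), had differences between T-Cell and B-Cell dogs close to the members' median. Of 27 ribosome biogenesis genes 26 were negative there, with a median of -0.60, and of 16 initiation factors 14 were negative, with a median of -0.43. Of 29 mitochondrial ribosomal protein genes, whose products build the separate ribosome of mitochondria, 21 were negative, with a median of -0.26. MYC, a driver of ribosome production, differed by -0.61 (SE 0.32, adjusted p = 0.265). Between timepoints in all dogs the medians were -0.16 for biogenesis (0 of 27 positive), -0.14 for initiation (0 of 16) and -0.17 for mitochondrial ribosomal genes (1 of 29). In both comparisons 0 genes of these lists passed the threshold. Over the 30 libraries the median r with the member mean was 0.62 for biogenesis genes, 0.61 for initiation factors, 0.40 for mitochondrial ribosomal genes and 0.17 for 6 growth control genes, MYC among them, whose median differences were -0.19 between labels and -0.04 between timepoints.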

How the data were processed

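Libraries of single 75-base reads were mapped to CanFam3.1 with HISAT2 2.1.0 and assembled and quantified with StringTie 1.3.3, per the labels and the study's methods, which name poly(A) RNA where the labels give total RNA. The authors deposited a table of FPKM and a table of gene counts for 32704 Ensembl gene IDs in 30 libraries. Symbols came from the study's shortened result tables, whose values were not used. FPKM were tested as log2(FPKM + 1) with limma 3.58.1 (R 4.3.3), genes with a mean FPKM of at least 1, dog as a block for changes over time, all labels in 1 fit, and Benjamini-Hochberg adjustment over all genes tested. Counts of the 9 dogs whose counts follow FPKM were tested with edgeR 4.0.16, with DESeq2 1.42.0 as an alternative. Pairing came from the dog: the initial and six-week profiles of 14 of 15 dogs correlated above 0.1 (median 0.60, lowest -0.11). The six-week library correlated best with its own initial library in only 9 dogs, and r was 0.34 for the pair 031A and 032B. The pairing thus rests on the library names. The scripts were tested on simulated data.

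Named genes were members with well known roles, the highest, lowest, steadiest and least steady members, those with the smallest p in each direction or the largest differences of a comparison, and the 5 named genes most like the member mean. Members, lists and rules were chosen with earlier results of these data known. Sequences were not used here. Values of 2 members are not reported here by name, although both are in every count and median.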

Additional observations from a re-analysis of the deposited data

Results flagged for a closer look

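Each member and the member share were looked at in the B-Cell and the Unknown dogs at each timepoint, 108 groups in all, for a library far from the others, and 3 groups held one by Dixon's ratio, which chance alone passes in about 1 of 20 groups. RPL22L1 was at 63.8 FPKM in the initial library of dog 029, the lowest of the B-Cell dogs, and this dog carried T-cell markers. RPL9 was at 2285 FPKM in the six-week library of dog 033, the highest of the B-Cell dogs, and that library had the largest FPKM sum. RPL26 was at 4817 FPKM in the six-week library 032B, the highest of the Unknown dogs. The causes were not tested.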

How the results depend on the processing

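Of 77 alternatives for the number of members called, 73 left it as reported. The exceptions were T-Cell against B-Cell dogs at the initial timepoint, with 10 members called without dog 029, 20 without dogs 029 and 038, 19 with libraries also scaled to the same FPKM sum (chosen after seeing the data), and 0 to 17 when each T-Cell dog was left out. There, all genes called went from 47 to between 1 and 3452, and RPS23 and RPL8 were called at -2.09 and -1.48 without dog 029. Of 77 alternatives for the members' medians, 4 changed sign, all for T-Cell dogs over time or the difference in change, and 17 of the same sign moved by over 1.5 times, among them the change over time without dogs 033 and 036 (-0.27, chosen after seeing the data), the difference in change at the same FPKM sum (0.36) and the counts without a low filter (-0.45). No call changed without the replicate block on dog: 0 members were called, and the genes with an unadjusted p under 0.05 over all dogs went from 1823 to 536. Without the low filter 2982 genes and 0 members were called between timepoints. Of 239 alternatives for 25 single values, 15 turned direction, none of them called: RPS21 (-0.00819 and -0.0196) and RPL19 (-0.0638 and -0.0753) between timepoints when scaled to the same FPKM sum, with or without the members in it; RPL19 without the pair 031A and 032B (-0.0326) or dog 036 (-0.0526); and, in counts, RPS21 and RPL19 without a low filter (both -0.149) or dog 036 (-0.00305 and -0.0597). The rest came from leaving out single dogs, which in T-Cell dogs gave -0.0905 to 1.38 for RPS7, -0.684 to 0.35 for RPL4 and -0.485 to 0.244 for RPS18, and in Unknown dogs -0.0624 to 0.401 for RPS21 and -0.00789 to 0.416 for RPL19. Mean shares moved by less than 1 SD when the paralog, mitochondrial genes or the most abundant gene ID were left out. The T-Cell side holds 3 dogs, of which 1 carried B-cell markers, and the count table bears on 9 dogs only.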
